A study of Homo sapiens with 6 samples.

Results

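Genes of mitochondrial ketone body use and fatty acid oxidation were followed on 6 expression arrays: ACAT1, BDH1, OXCT1, HADHA, HADHB, ACADM, CPT1A, SLC16A9 and SLC22A5. All 9 of 9 were measured, each by 1 probe set, among 18417 named genes. They are genes of one metabolic theme, chosen from measured values in part: ACAT1 because its level was higher after NRF3 siRNA, and SLC16A9 because it moved against NRF3 in all 3 lines. No test is therefore given for any of the 9 in the NRF3 comparisons, and their values there are a description.

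The arrays came from 6 groups with 1 array each. The colon cancer line HCT116 and HCT116-p53KO, its p53 knockout derivative, received control siRNA or NRF3 siRNA, with RNA collected after 48 h. The lung carcinoma line H1299 (non-small cell type) carried a GFP plasmid or an NRF3 plasmid after G-418 selection, so both H1299 groups had been through plasmid transfection and selection. NRF3, the product of NFE2L3, is a transcription factor of the basic leucine zipper class. The sources used here do not say how many siRNAs were used, whether the H1299 lines were clones or pools, or how HCT116-p53KO was derived.

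Fatty acids enter mitochondria as carnitine esters. SLC22A5 imports carnitine into the cell, SLC16A9 is a monocarboxylate transporter family protein linked to carnitine efflux, and CPT1A makes the carnitine esters at the outer membrane, the step that controls entry. Inside, ACADM starts the oxidation of medium-chain acyl-CoA, and HADHA and HADHB form the trifunctional protein that completes the cycle for long chains. Ketone bodies are used through BDH1, which turns beta-hydroxybutyrate into acetoacetate, OXCT1, which activates acetoacetate with coenzyme A, and ACAT1, which splits acetoacetyl-CoA into acetyl-CoA. ACAT1 also carries out the last cleavage in isoleucine breakdown. Gene spans are given from RefSeq on GRCh38.p14.

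Levels are RMA log2 intensities, on which 1 unit is a doubling, and differences are on the same log2 scale. The 4 siRNA arrays had median intensities of 6.95 to 7.0, and H1299 had 6.08 with GFP and 6.05 with NRF3. Sorted intensities differed on average by at most 0.0703 among the siRNA arrays and by 0.779 or more between these and the H1299 arrays, so differences of the 9 genes were taken on the deposited scale only within H1299 or among the HCT116 arrays. The marker levels that follow are given array by array on that scale, to check the labels, and not as differences between the sets. NFE2L3 matched the labels: it was lower after siRNA in HCT116 (-2.35) and HCT116-p53KO (-1.55) and higher with the plasmid in H1299 (2.02). Of 10 colon epithelial markers, 8 were at 6 or more on each siRNA array and 4 or 5 on the H1299 arrays. EPCAM was at 10.91 to 11.42 in the HCT116 lines and at 3.74 and 3.98 in H1299. None of 4 lung epithelial markers reached 6 in H1299, where the mesenchymal gene VIM was at 12.08 and 12.45. After siRNA several epithelial markers were lower, beside the differences of the 9 genes: CDH1 differed by -0.71 in HCT116 and -0.48 in HCT116-p53KO, KRT8 by -0.51 and -0.73, and KRT18 by -0.58 and -0.44. The medians of the 8 colon markers that reached 6 were -0.35 and -0.19. Of these 8, 5 were lower and 3 higher in HCT116, and 6 lower and 2 higher in HCT116-p53KO. CDX2 was higher in both lines, by 0.09 and 0.14. With NRF3 in H1299, the mesenchymal genes CDH2 and FN1 differed by 0.91 and -0.77. The part of these shifts in the results was not tested. Of 3 leukocyte markers, CD14 reached 6 on 3 siRNA arrays (6.06, 6.51 and 6.26) and PTPRC was at 3.80 or below on every array. Of 4 fibroblast markers, 3 reached 6 on each siRNA array, with COL1A1 at 7.92 to 8.03, and 1 on each H1299 array, while DCN was at 4.32 or below throughout. None of 3 endothelial markers reached 6 on any array. In these bulk samples fewer expressing cells and less RNA per cell cannot be told apart.

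The upstream sequences of ACAT1, of SLC16A9 and of the HADHA and HADHB pair are shown because the first 2 genes differed most and the pair shares its upstream region. Each is 250 bases ending just before an annotated start site, from RefSeq on GRCh38.p14, written 5′ to 3′ on the gene's strand. The ACAT1 window is chr11:108121317-108121566 on the plus strand and lies inside the annotated span of the gene, which opens at 108116705. Its capitals mark 2 CCAAT motifs, 1 on each strand. The SLC16A9 window is chr10:59710080-59710329 on the minus strand, and its capitals mark the E-box CACGTG. The HADHA window is chr2:26244633-26244882 on the minus strand, and its capitals mark the 194 bases that it shares with the HADHB window, chr2:26244689-26244938 on the plus strand.
ACAT1: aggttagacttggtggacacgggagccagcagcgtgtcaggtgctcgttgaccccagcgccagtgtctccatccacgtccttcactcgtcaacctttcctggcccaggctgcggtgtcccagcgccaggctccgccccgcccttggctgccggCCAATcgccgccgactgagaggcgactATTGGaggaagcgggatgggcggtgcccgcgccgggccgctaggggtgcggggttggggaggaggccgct
SLC16A9: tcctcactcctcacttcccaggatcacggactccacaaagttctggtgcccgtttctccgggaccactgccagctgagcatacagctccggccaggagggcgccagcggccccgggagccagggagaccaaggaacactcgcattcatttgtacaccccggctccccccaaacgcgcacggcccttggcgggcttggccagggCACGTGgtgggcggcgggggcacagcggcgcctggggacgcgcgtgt
HADHA: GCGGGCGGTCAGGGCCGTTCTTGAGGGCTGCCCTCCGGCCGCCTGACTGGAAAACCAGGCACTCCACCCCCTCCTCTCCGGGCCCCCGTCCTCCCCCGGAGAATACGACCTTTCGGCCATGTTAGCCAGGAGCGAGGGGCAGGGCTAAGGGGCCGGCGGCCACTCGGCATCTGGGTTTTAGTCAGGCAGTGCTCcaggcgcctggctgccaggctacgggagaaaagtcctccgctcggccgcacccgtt

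HADHA and HADHB are transcribed away from each other from start sites 307 bases apart. All 9 genes had at least 1 upstream window in the RefSeq table, 13 windows in all. Motifs were searched on both strands, and a match describes these letters only, not a bound site. The antioxidant response element core TGACNNNGC, the kind of site that NRF factors bind with small MAF partners, matched in 1 window, upstream of the second SLC16A9 start site, at positions -19 to -11 relative to it on the minus strand. That stretch lies downstream of the first SLC16A9 start site. Of 34943 upstream windows in RefSeq, 10.9% held this motif. CCAAT was found upstream of ACAT1 alone among the 9 genes, against 32.0% of all windows, and CACGTG upstream of SLC16A9 alone, against 6.32%. The GC box GGGCGG stood in the first window of 7 of the 9 genes, against 42.5% of all windows. These 7 windows were 68.0% to 74.0% G and C, and those of BDH1 and CPT1A, without a match, 45.6% and 44.4%. The share of all windows was not matched for this content. The HADHA match at -248 to -243 and the HADHB match at -64 to -59 are the same bases. In ACAT1 the matches at -119 to -114 and -114 to -109 share 1 position. TGACG, the short form of the cyclic AMP response element, was found in the first windows of ACAT1 and OXCT1, against 21.2%, and can overlap the antioxidant core where both occur. AGGTCA, a nuclear receptor motif, had no match in any of the 13 windows and was held by 12.1% of all windows.

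**Figure D1:**
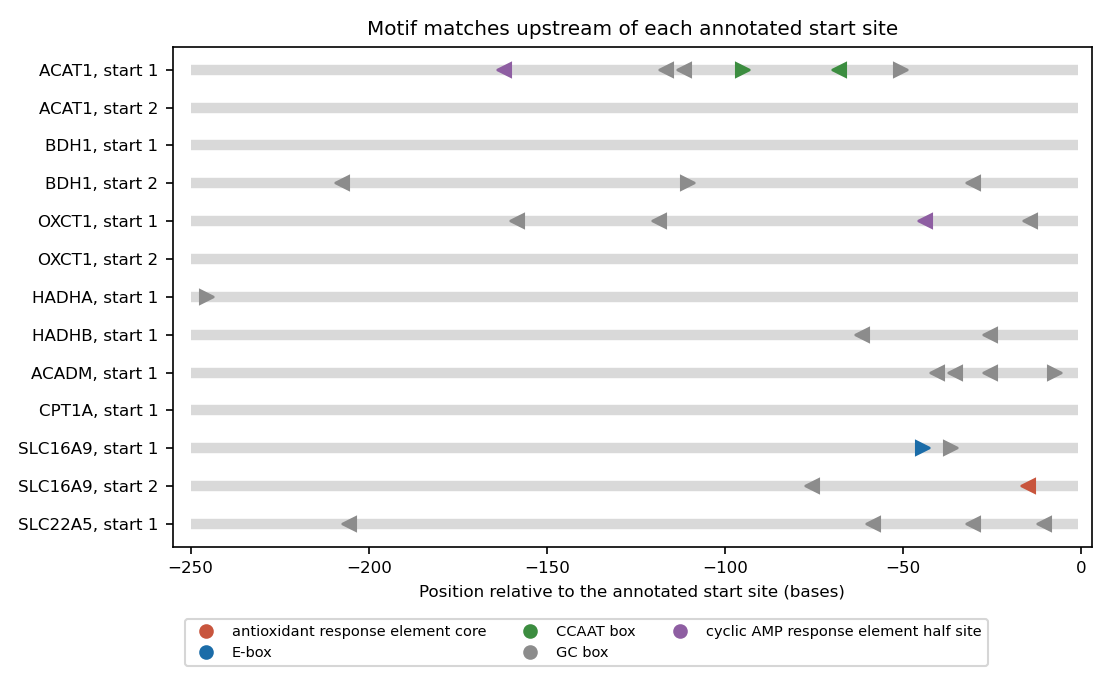
Motif matches (arrowheads, pointing along the matched strand) in the 250 bases upstream of each annotated start site, by position relative to that site; grey bars are the windows and colours the motifs. The antioxidant response element core has its single match upstream of the second SLC16A9 start, and the nuclear receptor motif, with no match, is not drawn.

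After NRF3 siRNA, the mitochondrial thiolase ACAT1 and the transporter SLC16A9 were higher in both HCT116 lines, BDH1 was higher chiefly in HCT116-p53KO. OXCT1 was at 0.29 and 0.55, and the other 5 genes differed by at most 0.33 in HCT116 or HCT116-p53KO. With NRF3 in H1299, OXCT1 was higher and SLC16A9 lower. At 1.5-fold (0.58 on the log2 scale), 2 of the 9 genes were higher and 0 lower in HCT116, where 2.71% of the 14034 genes that reached 6 on either array of the pair were higher and 6.02% lower. In HCT116-p53KO 3 of the 9 were higher and 0 lower, against 3.63% higher and 2.38% lower of 13680 genes. In H1299 8 of the 9 passed the expression filter, since BDH1 lay under 6 on both arrays; 1 was higher and 1 lower, against 4.82% and 4.20% of 11304 genes. These contrasts served to choose members, so nothing is read from those shares. The median difference of the genes that passed was 0.18 for HCT116, 0.33 for HCT116-p53KO and 0.28 for H1299, beside 0.01, 0.00 and 0.00 over all expressed genes.

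**Figure D2:**
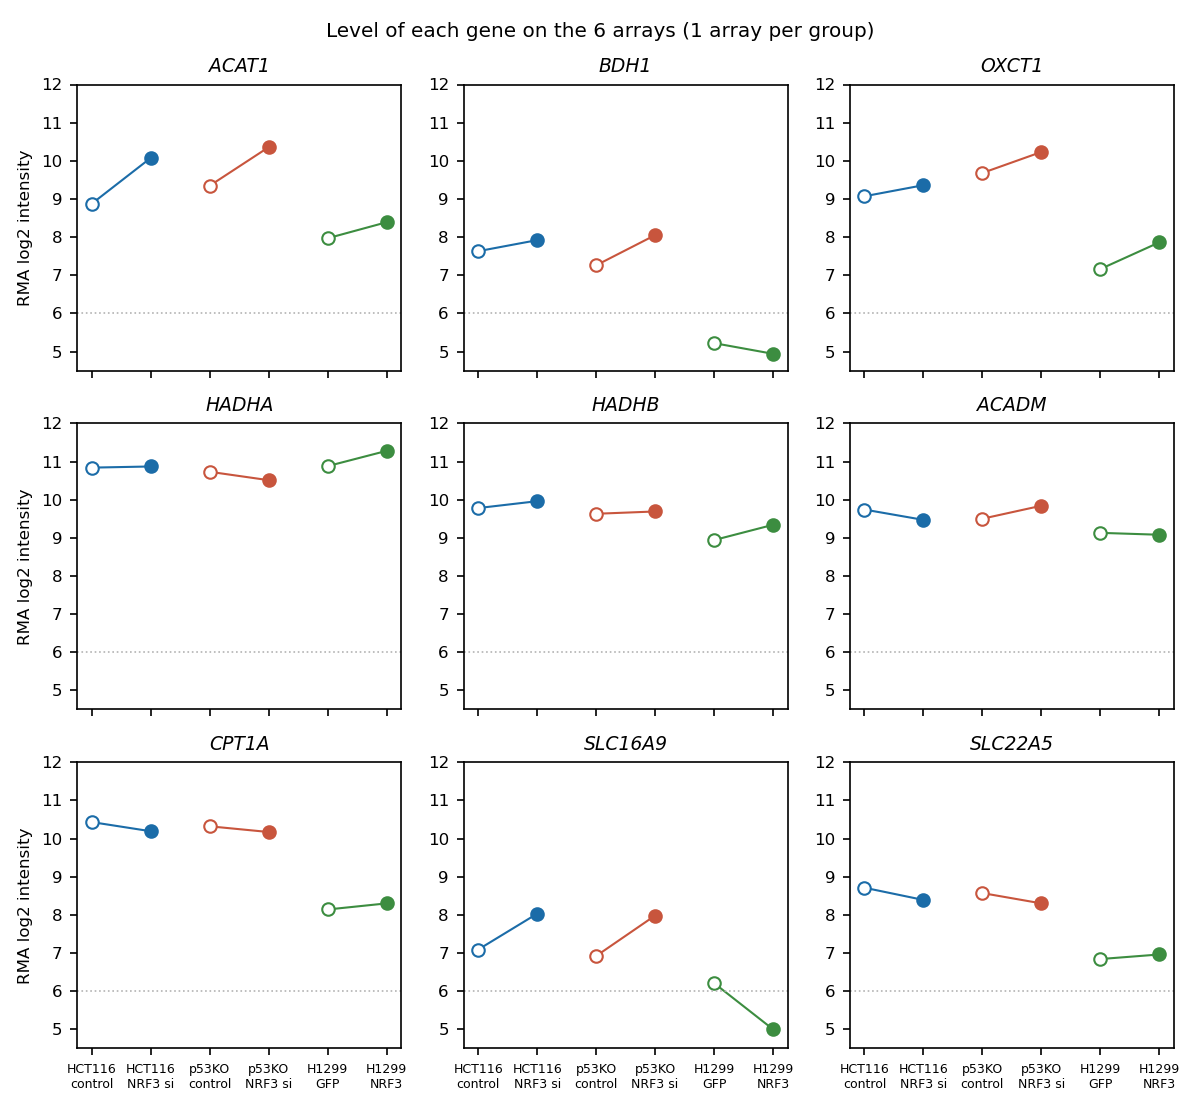
RMA log2 intensity of each gene on the 6 arrays; open circles are control siRNA or GFP, filled circles NRF3 siRNA or NRF3 plasmid, lines join the 2 arrays of a cell line, and the dotted line marks the filter at 6. ACAT1 and SLC16A9 slope upward after siRNA in both HCT116 lines, and in H1299 only SLC16A9 is lower by 1.5-fold or more.

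In HCT116 the ACAT1 level (chr11:108116705-108147603) was 8.88 on the control array and 10.08 on the NRF3 siRNA array, a difference of 1.20 or 2.30-fold. In HCT116-p53KO it went from 9.35 to 10.36, a difference of 1.01 or 2.01-fold. Both siRNA arrays were above both control arrays of these lines. In H1299 ACAT1 was at 7.97 with GFP and 8.39 with NRF3, 0.42 higher, so the level was higher both where NRF3 had been lowered and where it had been raised. The H1299 difference lay within the 5th to 95th percentile of expressed genes there, -0.54 to 0.58. ACAT1, OXCT1 and HADHB, 3 of the 8 genes expressed throughout, were higher in all 3 NRF3 comparisons at any size, a pattern that 15.1% of 10856 genes expressed in all 3 comparisons showed.

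Cytosolic enzymes that make acetoacetyl-CoA and HMG-CoA for sterol synthesis ran the other way from ACAT1 in the HCT116 lines. ACAT2, the cytosolic acetoacetyl-CoA thiolase, was at 8.77 and 7.82 in HCT116, at 9.01 and 8.52 in HCT116-p53KO, and at 8.84 and 9.63 in H1299, control array first. Its differences were thus -0.96, -0.50 and 0.80. HMGCS1, the cytosolic HMG-CoA synthase, differed by -0.90, -0.63 and 1.76. The cytosolic thiolase therefore followed NFE2L3 in direction in each line. Mitochondrial ACAT1 was opposite to NFE2L3 after siRNA and along with it in H1299. How many of all genes followed or opposed NFE2L3 in each line, at any size, was not counted.

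OXCT1 (chr5:41730065-41870425) was at 9.07 and 9.36 in HCT116, at 9.68 and 10.23 in HCT116-p53KO and at 7.16 and 7.86 in H1299, control array first. The differences were 0.29, 0.55 and 0.70, and the last, 1.62-fold, was the only one at 1.5-fold. Like ACAT1, OXCT1 was higher on the treated array of each line whichever way NRF3 had been changed. Its HCT116 difference lay within the 5th to 95th percentile of expressed genes, -0.63 to 0.49. Those of HCT116-p53KO and H1299 lay above the 95th percentiles, 0.52 and 0.58. Among the HCT116 arrays both HCT116-p53KO levels were above both HCT116 levels.

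BDH1 (chr3:197509783-197573343) was at 7.63 and 7.92 in HCT116 and at 7.26 and 8.05 in HCT116-p53KO, differences of 0.29 and 0.79, or 1.22-fold and 1.72-fold. The HCT116-p53KO arrays held both its lowest and its highest level among the siRNA arrays. H1299 had 5.22 with GFP and 4.94 with NRF3, both under the filter, so the difference of -0.28 there is uncertain in size.

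SLC16A9 (chr10:59650764-59710079) had a level of 7.09 on the control and 8.03 on the siRNA array of HCT116, 0.93 or 1.91-fold higher. HCT116-p53KO gave 6.92 and 7.98, 1.06 or 2.08-fold higher, and the siRNA arrays of the lines lay close to each other and above both controls. The GFP array of H1299 had 6.21 and its NRF3 array 5.0, which was 2.33-fold lower (-1.22). The NRF3 array lay under 6 there, so the size of that difference is uncertain. SLC16A9 was the 1 gene of the 9 that was at least 1.5-fold higher after both siRNAs and at least 1.5-fold lower with NRF3, as 0.0921% of 10856 genes were, a pattern it was chosen for. At least 1.5-fold higher after both siRNAs, with no condition on H1299, were 2 of the 9, ACAT1 and SLC16A9, and 1.18% of 13566 genes.

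The other 5 genes differed by at most 0.40 in any NRF3 comparison. HADHA (chr2:26190635-26244632), the trifunctional protein alpha subunit, was at 10.84 and 10.87 in HCT116, 10.73 and 10.51 in HCT116-p53KO and 10.88 and 11.28 in H1299, control array first. HADHB (chr2:26244939-26290465), the beta subunit, was at 9.78 and 9.96, at 9.63 and 9.69, and at 8.94 and 9.34 on the same arrays. With NRF3 in H1299 these subunits, which share their upstream region, were higher by 0.39 and 0.40; after siRNA they were at 0.04 and 0.18 in HCT116 and at -0.22 and 0.07 in HCT116-p53KO. HADHA overlaps GAREM2 in the annotation.

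ACADM (chr1:75724709-75763679) was at 9.74 and 9.47 in HCT116, 9.50 and 9.84 in HCT116-p53KO and 9.13 and 9.08 in H1299, and it overlaps the pseudogene DLSTP1 in the annotation. It was the gene whose siRNA difference parted most between the HCT116 lines, -0.27 against 0.33, a gap of -0.60 that has no replicate check. BDH1 came next with a gap of -0.50, and the other 7 genes had gaps between -0.26 and 0.25.

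CPT1A (chr11:68754620-68844277) was at 10.43 and 10.19 in HCT116, 10.32 and 10.17 in HCT116-p53KO and 8.14 and 8.30 in H1299. SLC22A5 (chr5:132369710-132395612) was at 8.71 and 8.39, at 8.57 and 8.30, and at 6.84 and 6.96. Both genes of carnitine supply and ester formation were lower after each siRNA, by 0.15 to 0.32, and higher with NRF3, by 0.16 and 0.12. The share of all genes with these directions was not counted. The median absolute difference of all expressed genes was 0.21 for HCT116, 0.17 for HCT116-p53KO and 0.19 for H1299, which is the size of these values. SLC22A5 overlaps the long noncoding RNA gene MIR3936HG.

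**Figure D3:**
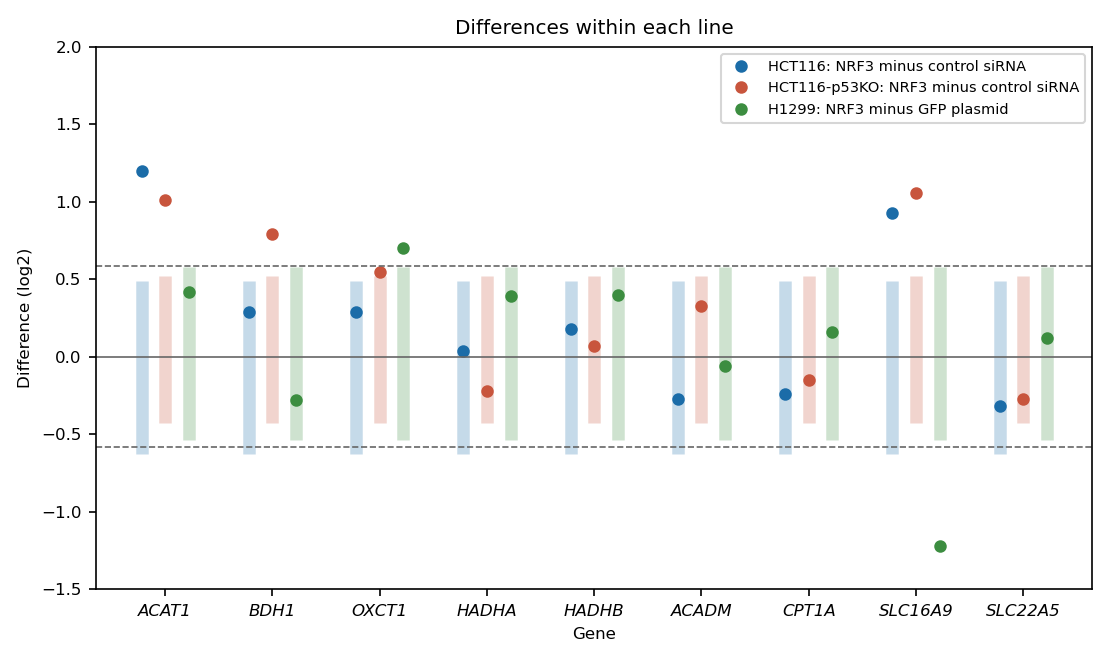
Difference on the log2 scale within each line for the 9 genes (points); shaded bars span the 5th to 95th percentile of all expressed genes in that comparison, and dashed lines mark 1.5-fold. ACAT1 and SLC16A9 after siRNA, BDH1 in HCT116-p53KO, and OXCT1 and SLC16A9 in H1299 lie beyond the dashed lines.

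The line difference, HCT116-p53KO against HCT116 on the control siRNA arrays, was not used to choose the genes. It shares both control arrays with the siRNA comparisons. OXCT1 was 0.62 or 1.53-fold higher in HCT116-p53KO, and it was the 1 of 9 genes at 1.5-fold in this direction, where 0.868% of 13827 genes were. None was 1.5-fold lower, against 3.45% of genes. ACAT1 was 0.48 higher, BDH1 0.37 lower (difference -0.37), and the other 6 genes lay between -0.24 and -0.10. Between the NRF3 siRNA arrays OXCT1 was again the 1 gene at 1.5-fold, at 0.87, against 10.4% of 14007 genes in either direction, and ACAT1 was at 0.28.

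Levels of H1299 and HCT116 could be set side by side only after quantile normalization was repeated over the 6 arrays. On that scale, 5 of the 9 genes differed by 1.5-fold or more between the GFP and the control siRNA arrays, against 41.4% of 13799 genes. BDH1 (-1.53), CPT1A (-1.33), OXCT1 (-0.97) and SLC22A5 (-0.94) were lower in H1299 and HADHA (0.92) was higher, while ACAT1 (0.04) and SLC16A9 (0.03) stood at like levels. Sorted deposited intensities of these 2 arrays differed by 0.792 on average. Repeated normalization evens out the distributions but not differences particular to a probe set. Line, tissue, medium, transfection and the set of arrays all differ here and cannot be told apart.

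Other genes of the pathways were taken from 10 lists with 157 genes in all beside the 9, of which 137 were measured. limma, fitted to all 6 arrays with cell line as a block, tested more minus less NRF3 over 14492 genes. It called 1 gene, 0.00690% of those tested, at a Benjamini-Hochberg adjusted p of 0.05, and that gene was NFE2L3 (1.98 ± 0.17, SE; adjusted p = 0.0401). That call was lost, leaving 0 genes called by limma, when quantile normalization was repeated (1612 genes at an unadjusted p under 0.05), without HCT116 (719) and without HCT116-p53KO (821). Of the 124 listed genes tested, limma called 0, with 19 at an unadjusted p under 0.05. ACAT2 (0.75 ± 0.14, SE), DECR1 (-0.65 ± 0.12) and HMGCS1 (1.10 ± 0.21) came nearest, each with an adjusted p of 0.24 by limma. No group had a second array, so these p-values set the mean effect against its spread between 3 different lines. limma drew that spread in part from all genes (5.90 prior and 2 residual degrees of freedom).

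Without H1299, limma called 14 of 119 listed genes, 11.8%, beside 9.88% of all 14148 genes, so the share in the lists is near that of the array as a whole. In that fit of 4 arrays, with 1 residual degree of freedom, limma assigned every gene the same spread (SE 0.16), and the calls are in effect a threshold on the mean of both siRNA differences. Of the 14, 10 rose after siRNA, where 630 of all 1398 called genes rose and 768 fell. The lists were chosen with earlier results of these data known, so nothing is read from these counts. Among the 10 was the fatty acid transport protein and acyl-CoA synthetase SLC27A2 (0.81, limma adjusted p = 3.34e-05). ECI1 (0.73), the enoyl-CoA isomerase, DECR1 (0.71), the dienoyl-CoA reductase, both needed for unsaturated fatty acids, and IDH3A (0.69), a subunit of isocitrate dehydrogenase, followed. The 4 that fell were ANGPTL4 (-0.90), a secreted lipase inhibitor and PPAR target, HMGCS1 (-0.76), ACAT2 (-0.73) and SLC16A10 (-0.60), an aromatic amino acid transporter.

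Within mitochondrial beta-oxidation, 10 of 16 expressed listed genes were higher in HCT116 (median 0.16), 14 of 16 in HCT116-p53KO (median 0.32) and 6 of 16 in H1299 (median -0.07). Over all expressed genes, 51.6%, 50.5% and 49.4% were higher. DECR1 was at 9.23 and 9.96 in HCT116, 8.98 and 9.67 in HCT116-p53KO and 9.36 and 8.83 in H1299, control array first. It thus differed in the direction opposite to NFE2L3 in each line, a pattern not counted over all genes. ECI1 differed by 0.60, 0.85 and -0.01. NUDT7, a peroxisomal coenzyme A hydrolase placed in this list, was at -1.35 in H1299 and at -0.18 and 0.40 after siRNA. At 1.5-fold 2 of the 16 were higher and 0 lower in each HCT116 line, and 0 higher and 1 lower in H1299. Over all expressed genes, 2.71% were higher and 6.02% lower in HCT116, and 3.63% and 2.38% in HCT116-p53KO. In H1299 these shares were 4.82% and 4.20%.

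Carnitine genes other than CPT1A, SLC16A9 and SLC22A5 had medians of 0.26, 0.22 and -0.24. Of the expressed members, 5 of 7 were higher in HCT116, 4 of 7 in HCT116-p53KO and 0 of 8 in H1299. All expressed genes were higher in 51.6%, 50.5% and 49.4% of cases. In H1299 ALDH9A1 (-0.01), SLC25A20 (-0.04) and SLC25A29 (-0.04) were near 0. The median absolute difference of all expressed genes there was 0.19. TMLHE, the first enzyme of carnitine synthesis, was at 7.72 with GFP and 6.15 with NRF3 in H1299, -1.58, and at 0.27 and 0.25 after siRNA. TMLHE was the only one of these carnitine genes at 1.5-fold in any NRF3 comparison. Of ketone body genes other than ACAT1, BDH1 and OXCT1, 5 of 11 were measured and 3, 3 and 2 expressed in the 3 comparisons, none at 1.5-fold.

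In fatty acid uptake and activation the medians were 0.09, 0.02 and 0.07. SLC27A2 differed by 0.68, 0.95 and 0.29 and SLC27A4, a second acyl-CoA synthetase of that family, by 0.40, 0.59 and 0.15. DBI, the acyl-CoA binding protein, was at -0.47, -0.35 and 0.59, along with NFE2L3 in each line, a pattern not counted over all genes. ACSF2, an acyl-CoA synthetase, was at -0.35, -0.03 and -0.71. Peroxisomal beta-oxidation genes, 10 expressed in each comparison, had medians of -0.25, -0.01 and -0.12 and none at 1.5-fold.

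ACAT1 also serves isoleucine breakdown. The branched-chain amino acid genes, a list of isoleucine, leucine and valine breakdown, had medians of -0.01, 0.15 and -0.09. ACAT1 was chosen for its rise after siRNA, so its larger difference beside these medians is not a finding. A part of isoleucine breakdown in it was not tested. Of the expressed branched-chain genes, 9 of 21 were higher in HCT116, 18 of 22 in HCT116-p53KO and 6 of 21 in H1299. The shares of all expressed genes that were higher were 51.6%, 50.5% and 49.4%. HIBADH, a valine pathway dehydrogenase, was at 0.65 in HCT116 and 0.44 in HCT116-p53KO, and BCAT2, the mitochondrial aminotransferase, at 0.07 and 0.67. Citric acid cycle genes had medians of 0.02, 0.10 and 0.27, with 11 of 16 higher in HCT116-p53KO and 12 of 16 in H1299. IDH3A was at 0.55, 0.82 and 0.38. Among other monocarboxylate transporter genes SLC16A14 was at 0.44 and 0.75 after siRNA and under 6 in H1299, and SLC16A10 at -0.76, -0.45 and 0.38.

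Regulators of fatty acid oxidation had 16 of 21 expressed members lower in HCT116 (median -0.18), 12 of 19 lower in HCT116-p53KO (median -0.07) and 11 of 20 lower in H1299 (median -0.06). ANGPTL4 was at 8.38 and 7.35 in HCT116 and 7.78 and 7.02 in HCT116-p53KO, differences of -1.03 and -0.77, and at -0.29 in H1299. In H1299 the nuclear receptors PPARG and RXRA parted, at 1.21 and -1.54, the GFP level of PPARG lying under 6 at 5.07. PRKAB1, a subunit of AMP-activated protein kinase, was at 0.59 there. PPARA, the receptor best known for driving these genes, was at -0.46, -0.42 and -0.38, and was named after its values were seen.

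**Figure D4:**
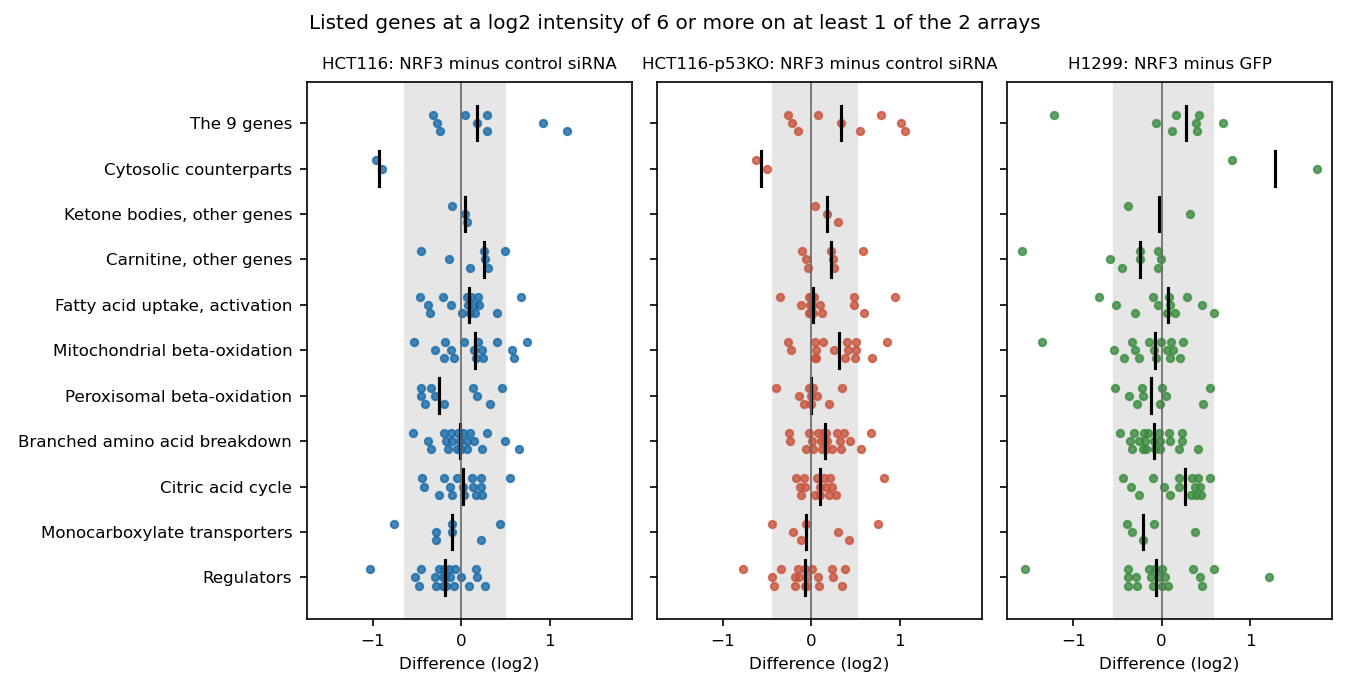
Log2 differences in each NRF3 comparison for the 9 genes and the listed pathway genes that reached 6 on at least 1 of the 2 arrays (points), with list medians (black bars) and the 5th to 95th percentile of all expressed genes (grey). Mitochondrial beta-oxidation, branched amino acid and citric acid cycle points lie mostly right of 0 in HCT116-p53KO. The other carnitine genes lie left of 0 in H1299, some of them close to it.

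Genes with the profile most like ACAT1 over the 3 NRF3 differences, by Euclidean distance among 10855 others, were UNC13B (1.06, 0.80 and 0.50; distance 0.26), TOMM22 (1.05, 0.81 and 0.21; distance 0.32) and LINC00173 (1.21, 0.82 and 0.10; distance 0.37). Nearest to SLC16A9 were BFSP1 (0.92, 0.68 and -1.30; distance 0.39), SEMA3A (0.69, 1.13 and -0.90; distance 0.40) and VCAN (0.67, 0.77 and -0.97; distance 0.46). The order of differences is HCT116, HCT116-p53KO, H1299.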

How the data were processed

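Total RNA (100 ng) from 6 groups, 1 array each, was labelled with a whole-transcript kit, per the labels' protocols. The authors deposited log2 intensities for 33297 probe sets. The submitters' processing notes name RMA and Affymetrix Expression Console. No version is given in these sources, nor which arrays were normalized together.

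Probe sets were named through the platform annotation: 19460 had 1 gene symbol, 1754 several and 12083 were not listed. Entrez numbers matched RefSeq (GRCh38.p14) for 19429. Each gene took its probe set with the highest mean, giving 18417 genes.

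A gene entered a comparison if either of its arrays reached 6. Differences were counted at 1.5-fold and not tested, groups being single arrays. limma 3.58.1 (R 4.3.3) was fitted across all genes, with line as a block, and was checked on simulated data. Promoter windows and motifs were read from RefSeq in Python 3.11.15.

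The 9 genes and all lists were chosen with earlier results of these data known. Named were the 9 genes, NFE2L3, ACAT2, HMGCS1, genes called by limma, up to 6 genes per list at 1.5-fold, and 3 nearest profiles for ACAT1 and SLC16A9. Genes called without H1299 but under the fold rule, PPARA, the list genes in the closing section and cell type markers were named beyond that rule.

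Alternatives were a lower and a higher (2) fold threshold, no filter or a filter of 7, repeated quantile normalization, loess correction, the mean of probe sets, another limma prior (trended, robust), a threshold of 0.10 on the adjusted p, and omission of each line.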

Additional observations from a re-analysis of the deposited data

Results flagged for a closer look

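ACAT1 and OXCT1 were singled out because their NRF3 effect had one sign in both HCT116 lines and the other in H1299, with at least 1 difference at 1.5-fold. ACAT1 was higher by 1.20 and 1.01 after siRNA and also higher, by 0.42, with NRF3 in H1299. OXCT1 was higher by 0.29 and 0.55 after siRNA and by 0.70 with NRF3. The difference between the lines was not tested, since each group had 1 array.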

How the results depend on the processing

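Values of the members' differences were recomputed 105 times, with quantile normalization repeated, with loess correction and with probe sets averaged, over the 3 NRF3 comparisons and HCT116-p53KO against HCT116. All 105 moved by less than 0.17, the median residual SD of the limma fit, the largest shift was 0.11, and 0 changed sign. Each member had 1 probe set, so averaging could not move its level. Counts at 1.5-fold depended on the size required. In HCT116 the count of 2 became 1 at 2-fold. In HCT116-p53KO 3 became 5 at the lower fold threshold. In H1299 2 became 5 at the lower threshold, 1 at 2-fold and 1 with a filter of 7, which drops SLC16A9 by construction. For HCT116-p53KO against HCT116, 1 became 3 at the lower threshold and 0 at 2-fold. Leaving out each line in turn, limma called 0 to 14 listed genes, the 14 without H1299, where the spread was pooled over all genes. The labels give no replicate numbers; each fit paired the 2 arrays of a line through the line block. Single arrays limit every value, and differences with an array under 6 are uncertain in size.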

Other observations

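Some listed regulators and fatty acid genes differed more between HCT116-p53KO and HCT116 than after NRF3 siRNA; they were named after their values were seen. NRIP1, a corepressor of oxidative metabolism genes, was at 8.70 and 8.22 in HCT116 and at 3.97 and 4.20 in HCT116-p53KO, control siRNA first. PRKAA2, a catalytic subunit of AMP-activated protein kinase, was at 7.19 and 7.19 against 5.16 and 4.80. The HCT116-p53KO levels of these genes were under 6, so the sizes of the differences are uncertain. ACSL5, an acyl-CoA synthetase, was at 11.55 and 11.71 against 9.58 and 9.70, and PPARG at 10.00 and 9.91 against 8.30 and 8.26. In each of these 4 genes both HCT116 arrays were above both HCT116-p53KO arrays, and the siRNA differences within a line were at most 0.48 in size. None of these values has a replicate check.

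SLC25A20, the carrier that passes carnitine esters across the inner mitochondrial membrane, lay just under 1.5-fold after siRNA, at 0.49 in HCT116 and 0.58 in HCT116-p53KO, and at -0.04 in H1299.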
